A study of Mus musculus with 6 samples.

Results

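The insulin-like growth factor (IGF) axis was followed through 10 genes in C2C12 cells, an established line of mouse myoblasts, with and without forced expression of the homeobox gene Msx1. The 10 genes were chosen by name and function, with earlier results of these data known. They are the ligand gene Igf1, the receptor genes Igf1r and Igf2r, the binding protein genes Igfbp2, Igfbp3, Igfbp4, Igfbp5, Igfbp6 and Igfbp7, and the protease gene Pappa. All 10 were found among the 24809 genes of the expression table. The mean over all libraries reached 0.5 FPKM for 9 of them, which therefore stood among the 12371 genes tested, and Pappa was below that minimum. FPKM are fragment counts scaled by transcript length and by the mapped fragments of the library, so levels can be compared between genes within a library, while comparisons between libraries also depend on how the libraries are scaled.

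The study measured RNA from control C2C12 cells (n = 3) and from C2C12 cells overexpressing Msx1 (n = 3). Both groups are the same cell line with genotype as the only labelled difference, and the data columns of the control group carry the name of a vector. The labels state neither the promoter that drives Msx1, nor whether a culture is a clone, nor the culture conditions. Nor do they call the replicates separate cultures. All p-values below thus reflect the variation among these 6 samples, part or all of which may be technical.

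IGF1 and IGF2 are small secreted hormones that bind the tyrosine kinase receptor IGF1R, which acts through insulin receptor substrates on the PI3K and AKT pathway and drives growth, survival and differentiation of muscle precursors. IGF2R is a multifunctional receptor for mannose 6-phosphate that carries IGF2 to lysosomes and does not act as a kinase. The IGF binding proteins (IGFBPs) hold IGFs outside the cell with high affinity and can block or prolong their action, and proteases such as PAPP-A release the hormone by cutting the binding protein. IGFBP7 is a related secreted protein that binds IGFs weakly.

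Msx1 itself read 7.13 to 7.99 FPKM in control libraries and 912 to 1004 FPKM in the Msx1 libraries, in the direction of the labels. Of all genes tested, 54.4% differed between the groups at an adjusted p under 0.05 in limma, with 22% higher and 32.4% lower in Msx1 cells, and every count of called genes that follows is read against these shares. Higher genes made up 40.4% of the calls in the values as deposited, 51.3% after median-of-ratios scaling and 55.5% after setting library totals equal without Msx1. The median log2 change over all genes tested was -0.07. The FPKM in a library summed to between 390439 and 441835, and Pearson r of log2 values was at least 0.9899 within groups and at most 0.942 between them. Since RNA was measured in bulk, fewer cells of a type and less RNA per cell cannot be told apart in any value that follows.

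Among the 9 tested IGF axis genes, 6 rose (Igf1r, Igfbp2, Igfbp3, Igfbp4, Igfbp5 and Igfbp7), 2 fell (Igf1 and Igfbp6) and Igf2r did not pass the test. The largest differences were in the binding proteins, with Igfbp2 at 6.99 times and Igfbp3 at 6.78 times the control level. The ligand and its signalling receptor moved in opposite directions, each by about the same factor. The median log2 change over the 9 genes was 1.35. The genes were chosen with earlier results of these data known, so the shares that follow describe the set and do not test it. The values of Msx1 and control libraries did not overlap for 8 of the 9, against 62.3% of all genes tested. For 5 of the 9, all of them binding proteins, the rise was at least 1 on the log2(FPKM + 1) scale, which held for 4.17% of all genes tested. A fall of that size, seen in 3.35% of all genes, was met by none of the 9. Igf1 and Igf1r lay close to this cut, at 2.13-fold lower and 2.06-fold higher in mean FPKM. Over the alternative settings the log2 change of Igf1 ranged from -1.07 to -0.83 and that of Igf1r from 0.90 to 1.04. An exact two-sided permutation test over the 6 libraries cannot give a p below 0.1 and gave 0.1 for each of the 8 genes without overlap, so the calls rest on the spread that limma shares across genes.

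**Figure D1:**
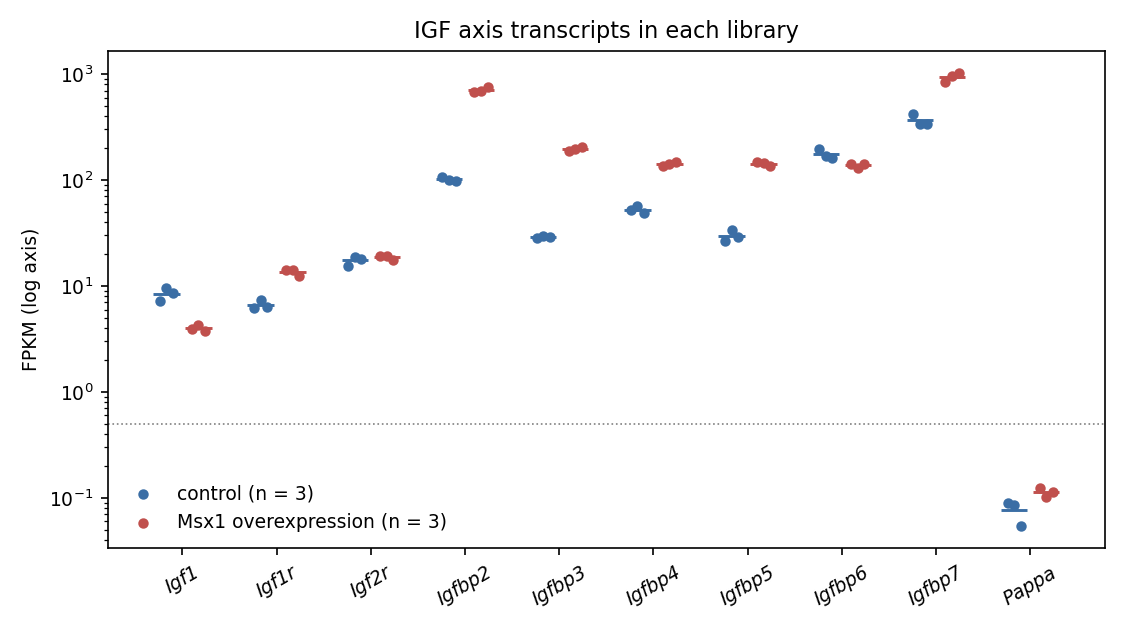
FPKM on a log axis of the 10 IGF axis genes in each control (n = 3) and Msx1 (n = 3) library, with points for libraries, short lines for group means and the dotted line at the minimum mean of 0.5 FPKM. The mean of Igfbp2 moved from 101 to 709 FPKM, Igf1 from 8.48 to 3.98 FPKM, and Pappa lay under the minimum in all 6 libraries.

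Igf1 encodes the hormone and lies at chr10:87858265-87937047 on the plus strand of the mouse build GRCm38. Its level was 7.20, 9.62 and 8.63 FPKM in control libraries 1, 2 and 3 and 3.92, 4.27 and 3.74 FPKM in the Msx1 libraries. Every Msx1 library was below every control library. The mean went from 8.48 ± 1.22 (SD, n = 3) to 3.98 ± 0.270 (SD, n = 3) FPKM, which is 2.13-fold lower, and the log2(FPKM + 1) change was -0.92 (SE 0.10, 95% confidence interval -1.16 to -0.69, limma adjusted p = 1.41e-04). The antisense gene Igf1os overlaps Igf1 in the annotation, has no value in the table, and reads from the 2 strands cannot be told apart where counting is not stated to use strand.

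Igf1 makes several transcripts, which differ in the leader exon at the start and in a 52-base exon (chr10:87915298-87915349) that changes the end of the precursor, giving the form called Eb or mechano growth factor in rodents. In the table of single transcripts, 17764 were tested and 32.3% were called. The transcript with the upstream leader and without the 52-base exon, of 153 codons, went from 6.01 ± 1.48 to 2.82 ± 0.338 FPKM (log2 change -0.86, limma adjusted p = 0.0124). The transcript with the 52-base exon, of 159 codons, went from 2.07 ± 0.308 to 0.945 ± 0.132 FPKM (log2 change -0.65, limma adjusted p = 0.0106). Both forms fell, and the other 3 Igf1 transcripts were below the minimum of 0.5 FPKM. Transcripts with the 52-base exon held 26.9 ± 7.10% of Igf1 FPKM in control cells and 25.7 ± 4.53% in Msx1 cells, and the 2 ranges overlap. The upstream leader carried 95.7 ± 1.63% and 96.4 ± 0.252%. FPKM of overlapping transcripts are the authors' estimates of how shared reads divide.

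Igf2, the other IGF ligand and not among the 10 genes, was the lower of the pair in control cells. It read 2.15, 2.37 and 2.41 FPKM in control libraries and 3.65, 5.12 and 5.39 FPKM in Msx1 libraries. All Msx1 values lay above all control values. The log2 change was 0.77 (SE 0.12, limma adjusted p = 0.00103), but with only the most abundant transcript of each gene in place of the sum it was 0.42 and the call was lost (adjusted p = 0.288). The sum of Igf1 and Igf2 was 10.8 ± 1.34 FPKM in control cells and 8.70 ± 0.985 FPKM in Msx1 cells, with overlapping libraries, while the Igf2 share of that sum was 21.6 ± 1.63% and 53.9 ± 5.43%.

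Igf1r, the kinase receptor that both ligands use, lies at chr7:67952257-68233668 on the plus strand. Control libraries read 6.14, 7.35 and 6.29 FPKM and Msx1 libraries 14.1, 14.1 and 12.4 FPKM. The lowest Msx1 library was well above the highest control library. The mean rose 2.06-fold, from 6.59 ± 0.660 to 13.6 ± 1.00 FPKM, with a log2 change of 0.94 (SE 0.08, 95% interval 0.75 to 1.13, limma adjusted p = 4.23e-05). The insulin receptor gene Insr, whose product can pair with IGF1R in hybrid receptors, read 6.98 ± 0.934 and 7.38 ± 0.690 FPKM and was not called (log2 change 0.07, limma adjusted p = 0.564). Igf1r per unit of Insr was 0.948 ± 0.0495 in control and 1.84 ± 0.0390 in Msx1 libraries.

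Igf2r, the clearance receptor for IGF2, lies at chr17:12682406-12769706 on the minus strand. It read 15.5, 18.9 and 18.1 FPKM in control libraries and 19.2, 19.2 and 17.8 FPKM in Msx1 libraries, and the groups overlap. The log2 change was 0.10 (SE 0.08, limma adjusted p = 0.336), and its 95% interval of -0.09 to 0.28 bounds the size of difference that these libraries allow. The noncoding gene Airn, transcribed through the Igf2r start on the opposite strand, read 1.17 ± 0.164 and 1.55 ± 0.514 FPKM and was not called (limma adjusted p = 0.235).

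Igfbp2 and Igfbp5 lie tail to tail on chromosome 1, Igfbp2 at chr1:72824480-72852474 on the plus strand and Igfbp5 at chr1:72858065-72874865 on the minus strand, with 5.59 kb between them. IGFBP2 carries an integrin-binding RGD motif, and IGFBP5 binds the extracellular matrix and is known for its role in muscle cell differentiation. Igfbp2 read 106, 99.98 and 98.1 FPKM in control libraries and 678, 699 and 749 FPKM in Msx1 libraries. The groups are far apart compared with the spread inside each: 101 ± 4.06 against 709 ± 36.2 FPKM, a log2 change of 2.79 (SE 0.06, 95% interval 2.65 to 2.94, limma adjusted p = 3.95e-08). Ordered from the most raised, it stood at rank 60 of the 12371 genes tested, and by level Igfbp2 went from rank 678 to rank 56. Igfbp5 read 26.4, 34.1 and 29.0 FPKM in control libraries and 147, 144 and 136 FPKM in Msx1 libraries. Its mean was 4.77-fold higher, 142 ± 5.65 against 29.8 ± 3.89 FPKM, with a log2 change of 2.22 (SE 0.09, limma adjusted p = 6.08e-07).

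Igfbp3, whose product is the main IGF carrier in serum, lies at chr11:7206086-7215498 on the minus strand. It read 28.6, 29.7 and 28.8 FPKM in control libraries and 190.0, 196 and 205 FPKM in Msx1 libraries. Within each group the libraries were close, and the mean went from 29.0 ± 0.551 to 197 ± 7.71 FPKM (log2 change 2.72, SE 0.05, limma adjusted p = 1.48e-08). Igfbp1, which lies 3.54 kb away, was at a mean of 0.0118 FPKM in control libraries, was listed at 0 in the Msx1 libraries, and was not tested.

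Igfbp4, whose product is a substrate of PAPP-A, lies at chr11:99040005-99052655 on the plus strand. Control libraries read 51.9, 57.2 and 49.2 FPKM and Msx1 libraries 137, 143 and 148 FPKM. No library of one group came near the other, and the mean rose 2.70-fold from 52.7 ± 4.07 to 142 ± 5.64 FPKM (log2 change 1.42, SE 0.07, limma adjusted p = 1.40e-06).

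Igfbp7, which codes for the weak IGF binder, lies at chr5:77349240-77408045 on the minus strand and was the most abundant of the 10 genes in both groups. It read 424, 337 and 338 FPKM in control libraries and 839.8, 949 and 1016 FPKM in Msx1 libraries. Control library 1 was the highest of its group and still far below the lowest Msx1 library. The mean rose 2.55-fold from 366 ± 50.1 to 935 ± 88.8 FPKM (log2 change 1.35, SE 0.11, limma adjusted p = 3.03e-05), and its rank by level went from 159 to 29. The main transcript of 282 codons rose (log2 change 1.39, limma adjusted p = 8.40e-04). The form of 313 codons read 25.1 ± 13.0 and 46.8 ± 5.10 FPKM and was not called (log2 change 0.97, adjusted p = 0.0694).

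Igfbp6, whose product prefers IGF2 over IGF1, lies at chr15:102144186-102149512 on the plus strand and was the only binding protein gene of the 6 called lower. It read 197, 168 and 163 FPKM in control libraries and 140.3, 129 and 142 FPKM in Msx1 libraries. The gap between the lowest control and the highest Msx1 library was small compared with those of the other binding proteins. The mean was 1.28-fold lower, 137 ± 6.94 against 176 ± 18.1 FPKM, with a log2 change of -0.35 (SE 0.08, 95% interval -0.54 to -0.16, limma adjusted p = 0.00712).

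**Figure D2:**
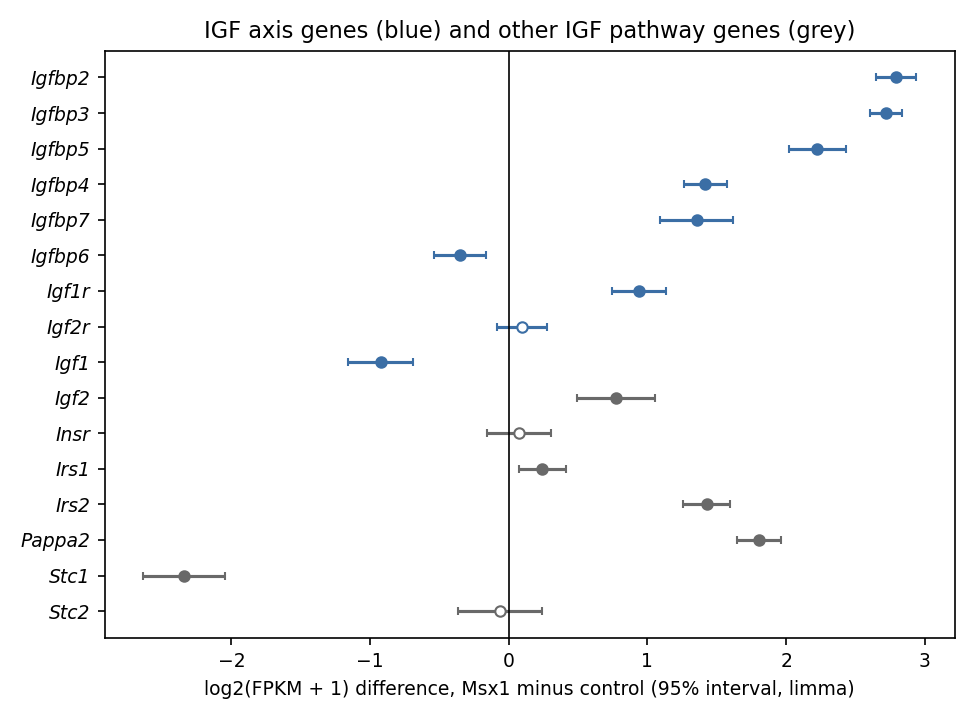
Log2(FPKM + 1) change, Msx1 minus control, with 95% confidence intervals from limma (n = 3 and 3 libraries), of the 9 tested IGF axis genes in blue and 7 other pathway genes in grey, where an open symbol was not called. Igfbp2 at 2.79 and Igfbp3 at 2.72 are the farthest to the right, Igf1 at -0.92 is the farthest left of the blue points, and the interval of Igf2r includes 0.

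Igfbp2, Igfbp3, Igfbp5 and Igfbp4 had the largest rises by fold of the 10 genes, and the 250 bases before their start sites are shown for that reason. Igfbp7, which rose 2.55-fold against 2.70-fold for Igfbp4, came next by fold and is not shown. Sequences come from the RefSeq promoter table of build GRCm38, run 5′ to 3′ along the strand of the gene, and end at the base before the start site. Capitals mark exact matches on either strand to the E-box CANNTG or to TATAAA. Factors of the MyoD family bind some forms of CANNTG, and TATAAA is found in promoters about where the basal transcription machinery binds. Whether any factor binds a marked match was not tested. Igfbp2 is chr1:72824230-72824479 on the plus strand, Igfbp3 is chr11:7213924-7214173 on the minus strand, Igfbp4 is chr11:99040994-99041243 on the plus strand and Igfbp5 is chr1:72874866-72875115 on the minus strand.
Igfbp2: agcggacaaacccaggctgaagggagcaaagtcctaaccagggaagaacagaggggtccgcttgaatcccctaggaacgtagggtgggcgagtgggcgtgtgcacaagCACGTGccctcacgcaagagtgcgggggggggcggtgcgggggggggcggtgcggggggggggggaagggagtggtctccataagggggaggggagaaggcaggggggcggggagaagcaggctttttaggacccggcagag
Igfbp3: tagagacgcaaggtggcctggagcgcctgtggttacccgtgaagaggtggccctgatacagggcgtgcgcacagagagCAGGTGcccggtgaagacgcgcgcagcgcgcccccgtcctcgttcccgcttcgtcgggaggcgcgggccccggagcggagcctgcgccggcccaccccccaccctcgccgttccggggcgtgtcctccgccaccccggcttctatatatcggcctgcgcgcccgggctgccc
Igfbp4: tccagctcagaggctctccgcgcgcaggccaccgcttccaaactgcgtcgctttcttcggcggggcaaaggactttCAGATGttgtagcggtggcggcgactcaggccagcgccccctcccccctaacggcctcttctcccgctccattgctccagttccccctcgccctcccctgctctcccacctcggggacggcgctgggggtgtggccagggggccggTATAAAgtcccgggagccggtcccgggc
Igfbp5: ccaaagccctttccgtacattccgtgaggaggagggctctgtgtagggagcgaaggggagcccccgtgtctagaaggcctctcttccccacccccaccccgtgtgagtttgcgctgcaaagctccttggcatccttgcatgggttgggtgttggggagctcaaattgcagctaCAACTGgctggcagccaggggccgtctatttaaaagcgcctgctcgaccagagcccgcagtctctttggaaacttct
Each of these 4 windows holds 1 E-box match, with its first base at -142 in Igfbp2 (a CACGTG), -172 in Igfbp3 (CAGGTG), -174 in Igfbp4 (CAGATG) and -77 in Igfbp5 (CAACTG). The window of Igfbp4 also holds a TATAAA at -28. GC content was 67.2% in Igfbp2, 73.2% in Igfbp3, 69.2% in Igfbp4 and 58.8% in Igfbp5.

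Promoter windows were found for 9 of the 10 IGF axis genes, Igfbp2 having 2 of them. The only Igf1 window (chr10:87860861-87861110) lies inside a downstream leader exon. The upstream leader, which carried 95.7% of Igf1 FPKM in control and 96.4% in Msx1 cells, had no window and was not searched. CANNTG was present for 7 of the 9 genes, Igfbp7 and Igf1r having no match, and in 66.22% of all 32851 mouse windows of this length. The 7 include Igf1 and Igfbp6, which were lower in Msx1 cells, and Igf2r, which was not called and has 4 matches. A match thus did not go with the direction of change. TATAAA was present for 2 of the 9 (Igfbp4 and Igfbp6) and in 12.37% of all windows. The match in Igfbp4 is on the plus strand at -28, and that in Igfbp6 is on the minus strand at -148, much farther from the start site. TAATTA, the core of the motif that many homeodomain proteins bind, was present for 0 of the 9 and in 4.84% of all windows, which says only that these letters are not in these windows. TGACTCA, the AP-1 motif, was found only in the window of the downstream Igfbp2 start site and in 4.463% of all windows. No match overlapped a match to another of the 4 motifs, and all were searched on both strands.

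The summed FPKM of Igfbp2 to Igfbp7 read 833, 725 and 706 in control libraries and 2132, 2260 and 2396 in Msx1 libraries. All Msx1 sums were above all control sums, with a mean of 2263 ± 132 against 755 ± 68.7 FPKM, or 3.00-fold. As a part of all FPKM in a library the 6 genes made up 0.177 ± 0.0115% in control and 0.573 ± 0.0262% in Msx1 cells. The make-up of the pool differed as well. Igfbp2 held 13.5 ± 0.658% of it in control and 31.3 ± 0.432% in Msx1 cells, while Igfbp6 held 23.3 ± 0.269% and 6.08 ± 0.446%. Igfbp7 was the main part in both, at 48.4 ± 2.28% and 41.3 ± 1.63%. Igfbp3 went from 3.87 ± 0.375% to 8.71 ± 0.179% and Igfbp5 from 3.99 ± 0.769% to 6.32 ± 0.613%, and the shares of Igfbp4 overlapped at 7.02 ± 0.830% and 6.30 ± 0.118%. Binding protein FPKM per unit of Igf1r was 116 ± 18.7 in control and 168 ± 22.3 in Msx1 libraries. These shares are a description and were not tested.

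**Figure D3:**
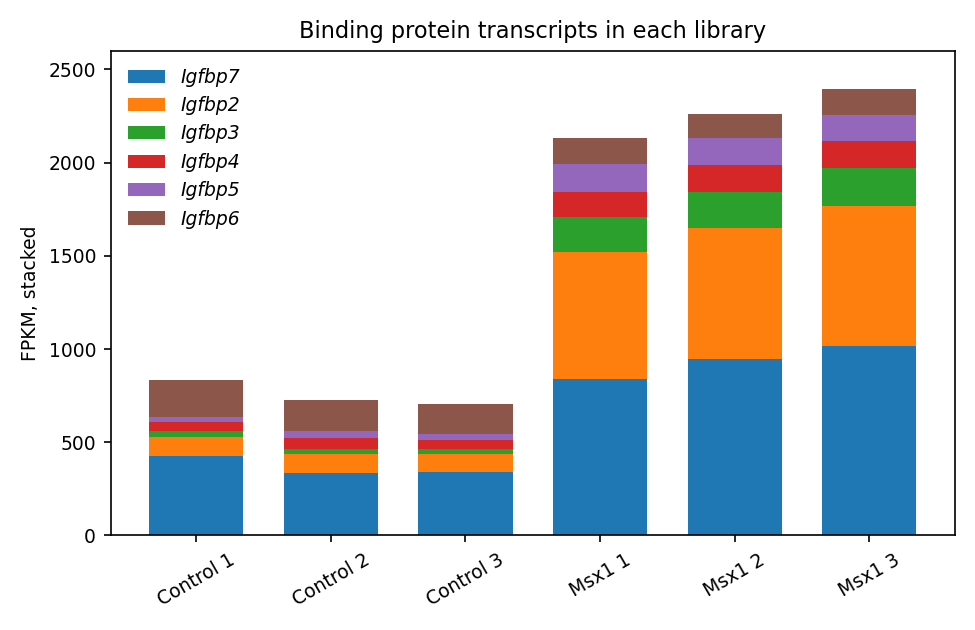
Stacked bars of the FPKM of Igfbp2 to Igfbp7 in each of the 6 libraries, with the axis starting at 0. The sums lie between 706 and 833 FPKM in control and between 2132 and 2396 FPKM in Msx1 libraries, and Igfbp2 grows from 13.5% to 31.3% of the bar.

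In order of level per length, control cells had Igfbp7, Igfbp6, Igfbp2 and Igfbp4 at the top with no overlap between neighbours, then Igfbp5 and Igfbp3, which overlapped each other. Igf2r followed, then Igf1 and Igf1r, which also overlapped, and Pappa came last. In Msx1 cells the order was Igfbp7, Igfbp2 and Igfbp3, then Igfbp4, Igfbp5 and Igfbp6 with overlapping libraries, then Igf2r, Igf1r, Igf1 and Pappa. Igfbp6 was thus second in control cells and no longer apart from Igfbp4 and Igfbp5 in Msx1 cells, and Igf1r stood above Igf1 only there.

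Pappa (chr4:65124174-65357509, plus strand) encodes the protease that cuts IGFBP4. It read 0.0890, 0.0866 and 0.0545 FPKM in control libraries and 0.123, 0.101 and 0.115 FPKM in Msx1 libraries. Without a filter on low values its log2(FPKM + 1) change was 0.05 and was not called (limma adjusted p = 0.123). Its relative Pappa2, which cuts IGFBP5 and IGFBP3, was higher in Msx1 cells: 0.761, 0.866 and 0.896 FPKM in control and 5.56, 5.57 and 5.15 FPKM in Msx1 libraries, a log2 change of 1.80 (limma adjusted p = 4.91e-07). Stc1, an inhibitor of these proteases, read 20.3, 29.2 and 21.4 FPKM in control and 4.01, 3.55 and 3.84 FPKM in Msx1 libraries. Its level was 6.21-fold lower (log2 change -2.34, limma adjusted p = 2.92e-06), and Stc2, the other stanniocalcin, read 1.11 ± 0.146 and 1.04 ± 0.367 FPKM and was not called (adjusted p = 0.717).

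Of the 13 IGFBP proteases and inhibitors listed, 11 were tested, of which 4 rose and 6 fell (90.9% called, against 54.4% of all genes tested), with a median log2 change of -0.26. The serine protease gene Htra3 went from 5.78 ± 0.700 to 43.7 ± 0.301 FPKM (log2 change 2.73, limma adjusted p = 1.05e-07). Plau, the urokinase gene, went from 12.1 ± 0.524 to 67.7 ± 2.32 FPKM (log2 change 2.39, limma adjusted p = 3.95e-08). Htra1, named here after its values were seen, completes the 4 that rose, from 54.2 ± 4.27 to 139 ± 5.04 FPKM.

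Of 9 other ligands and carriers only 3 reached the minimum, and 2 of these rose, Igf2 and Crim1 (12.6 ± 0.606 to 31.8 ± 1.44 FPKM, log2 change 1.27, limma adjusted p = 1.33e-06). Crim1 encodes a membrane protein with an IGFBP-like motif. Esm1, named after its values were seen, was under the minimum mean and not tested. It read 0.677 ± 0.228 FPKM in control and 0.0562 ± 0.0311 FPKM in Msx1 libraries, without overlap. Over the alternatives, 1 to 2 genes of this list were called higher and 0 to 1 lower. Igf2bp2, the only gene tested among 3 coding for proteins that bind Igf2 mRNA, was lower (15.3 ± 1.09 to 8.18 ± 0.236 FPKM, log2 change -0.83, adjusted p = 2.12e-05). Of the 4 genes carrying growth hormone input to Igf1, 2 rose and 1 fell: Stat5b by 0.68 and Ghr by 0.43 upward, and Jak2, which fell by 0.70 on the log2 scale. The call of Ghr was lost without Msx1 replicate 2 (adjusted p = 0.0552) and with the most abundant transcript alone (0.0595).

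Downstream of the receptors, the list of receptors and docking proteins had 19 of 22 genes tested, of which 5 rose and 7 fell (63.2% called, against 54.4% of all genes tested). Irs2, which links IGF1R to PI3K, rose from 5.67 ± 0.345 to 16.97 ± 1.31 FPKM (log2 change 1.43, limma adjusted p = 2.22e-06). Irs1, the other main docking protein, read 41.2 ± 3.58 and 48.8 ± 2.25 FPKM, a log2 difference of 0.24 with limma adjusted p = 0.0224. That call was lost without Control replicate 3 (0.0503), Msx1 replicate 1 (0.0731) or Msx1 replicate 2 (0.0798). Genes for inhibitors of insulin and IGF receptor signalling went both ways: Enpp1 fell by 1.18 and Grb14 fell by 0.61 on the log2 scale, and Socs1 rose by 0.53. The count of 7 lower became 3 after median-of-ratios scaling, 2 after quantile normalization, 3 with equal totals, 3 without Msx1 replicate 1, and 4 without Control replicate 1, Control replicate 2, Msx1 replicate 2 or Msx1 replicate 3. The 5 that rose became 2 without Msx1 replicate 1, and 3 without Control replicate 3 or without Msx1 replicate 2.

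In the PI3K, AKT and mTOR list, 27 of 28 genes were tested, 2 rose and 6 fell (29.6% called, against 54.4% of all genes tested), and the median log2 change was 0.06. Those named by size were Pik3r3 (-0.85) and Pik3cb (-0.55), which encode PI3K subunits, Deptor (-0.72), an inhibitor of mTOR, and the S6 kinase gene Rps6kb1 (-0.35). Under equal library totals the last was not called (adjusted p = 0.0773). How many rose depended on scaling, with 8 after median-of-ratios scaling, 7 after quantile normalization and 10 with equal totals, of which the last left 3 lower. It was 9 with library weights, 4 with the replicate block, 5 without Control replicate 2, 0 without Msx1 replicate 1 and 1 without Msx1 replicate 2.

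FoxO factors are held out of the nucleus by AKT, and their muscle targets include genes of protein breakdown. All 18 listed genes were tested, 12 rose and 6 were not called (66.7% called higher, against 22% of all genes tested), with a median log2 change of 0.44. By limma 0 were lower, also at an unadjusted p under 0.05, but 4 were with library weights and 1 without Control replicate 1. Txnip went from 39.7 ± 4.34 to 148 ± 6.83 FPKM (log2 change 1.88), Foxo6 from 0.772 ± 0.162 to 2.71 ± 0.200 FPKM (1.07), and Trim63, which encodes the muscle ubiquitin ligase MuRF1, from 1.49 ± 0.0684 to 3.37 ± 0.286 FPKM (0.81). Bcl6 changed by 0.69, but by 0.16 with its most abundant transcript alone, where it was not called (adjusted p = 0.65).

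**Figure D4:**
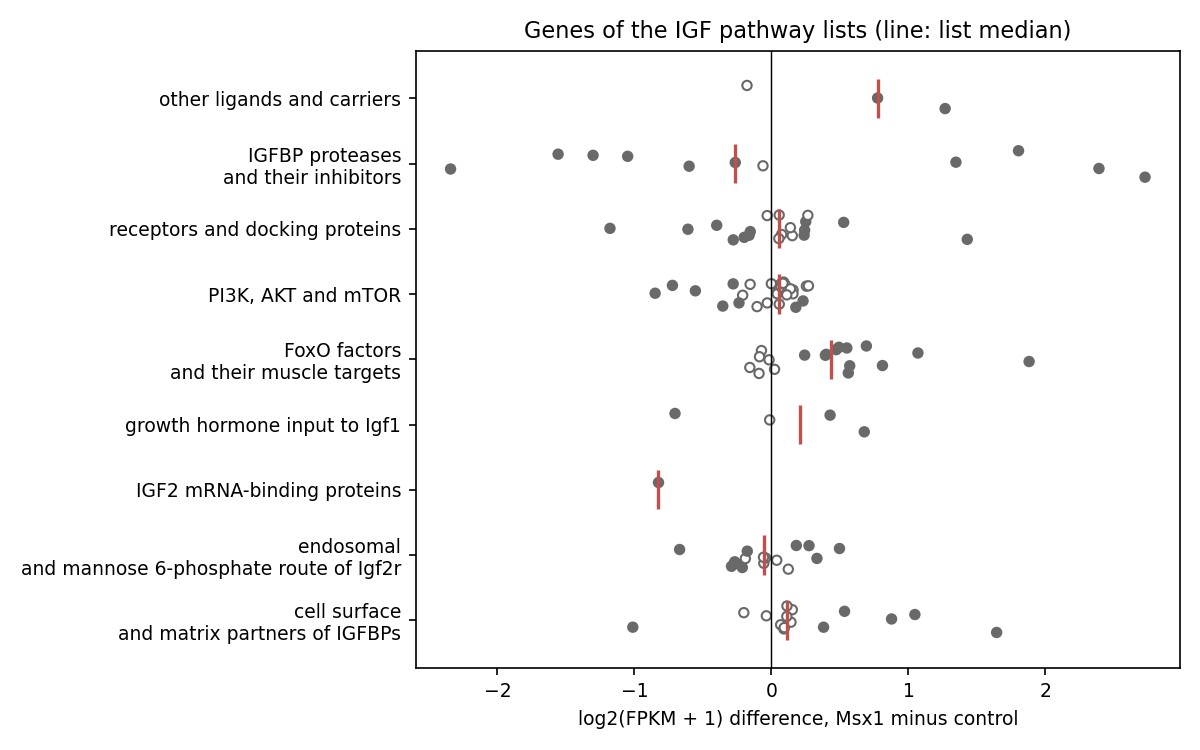
Log2(FPKM + 1) change, Msx1 minus control, of every tested gene in each pathway list, with open symbols for genes not called and red lines for list medians. The FoxO list has a median of 0.44 and the PI3K, AKT and mTOR list of 0.06, against -0.07 over all genes tested.

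On the route that carries IGF2R and its mannose 6-phosphate cargo, all 17 genes were tested, of which 4 rose and 6 fell, with a median log2 change of -0.06. The 58.8% called is near the 54.4% of all genes tested. The clathrin adaptor gene Ap1s1 fell by 0.67 and the sorting nexin gene Snx5 fell by 0.29. Nagpa and Gnptg, which act in making the mannose 6-phosphate tag, rose by 0.50 and 0.33, with Nagpa not called with its most abundant transcript alone (adjusted p = 0.0976) and Gnptg not called without Control replicate 2 (0.0552) or Msx1 replicate 2 (0.0519). The 6 lower became 3 with equal totals and the 4 higher became 2 without Control replicate 2.

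Surface and matrix partners of the IGFBPs had 15 of 18 genes tested, of which 5 rose, 1 fell and 9 were not called, with a median log2 change of 0.11, and 40% were thus called. The count that rose became 9 when library totals were made equal, and also when scaled by median of ratios. Gpc1, a heparan sulphate proteoglycan, went from 235 ± 12.3 to 737 ± 6.90 FPKM (log2 change 1.64), and the fibronectin gene Fn1 from 789 ± 105 to 1442 ± 58.5 FPKM (0.88). Cd93, which encodes a surface receptor of IGFBP7, went from 0.150 ± 0.0116 to 1.38 ± 0.186 FPKM (1.05). Cd93, 1 of the 5 that rose, was under 0.5 FPKM in control cells and was tested only through its level in Msx1 cells. It was not tested at a minimum of 1 FPKM. Cav1, the caveolin gene, was the one that fell, by 1.01.

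Protein-coding genes within 500 kb of an IGF axis gene, 129 in all, gave 62 tested genes of which 10 were higher, 27 lower and 25 not called, so 59.68% were called against 54.4% of all genes. Beside the Igfbp2 and Igfbp5 pair, 3 neighbours were tested. Xrcc5 was lower (log2 change -0.73), Smarcal1 higher (0.40), and Rpl37a not called (-0.27, adjusted p = 0.0615), and the 3 values are far from the 2.79 of Igfbp2 and the 2.22 of Igfbp5. The call of Rpl37a was gained with library weights (adjusted p = 0.00441), with the replicate block (0.0383) and without Control replicate 2 (0.0109). All 5 tested neighbours of Igf1 were lower, led by Parpbp (-1.14), as were all 3 of Igf1r (Synm -0.52, Ttc23 -0.49 and Lrrc28 -0.39). The 3 tested neighbours of Igf1r lie 193 kb or more away. The nearer Fam169b (40.2 kb) and Pgpep1l (1.85 kb) were below the minimum and not tested, Fam169b reading 0.0338 ± 0.0457 FPKM in control and 0.353 ± 0.0525 FPKM in Msx1 libraries and Pgpep1l listed at 0 in control and reading 0.0279 ± 0.0254 FPKM in Msx1 libraries. Lrrc28 was not called with its most abundant transcript alone (adjusted p = 0.139). Top2a, 15.8 kb from Igfbp4, fell by 1.26, and Hopx, 234 kb from Igfbp7, rose by 1.16. Polr2b overlaps Igfbp7 at one end, read 32.1 and 30.2 FPKM, and was not called.

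**Figure D5:**
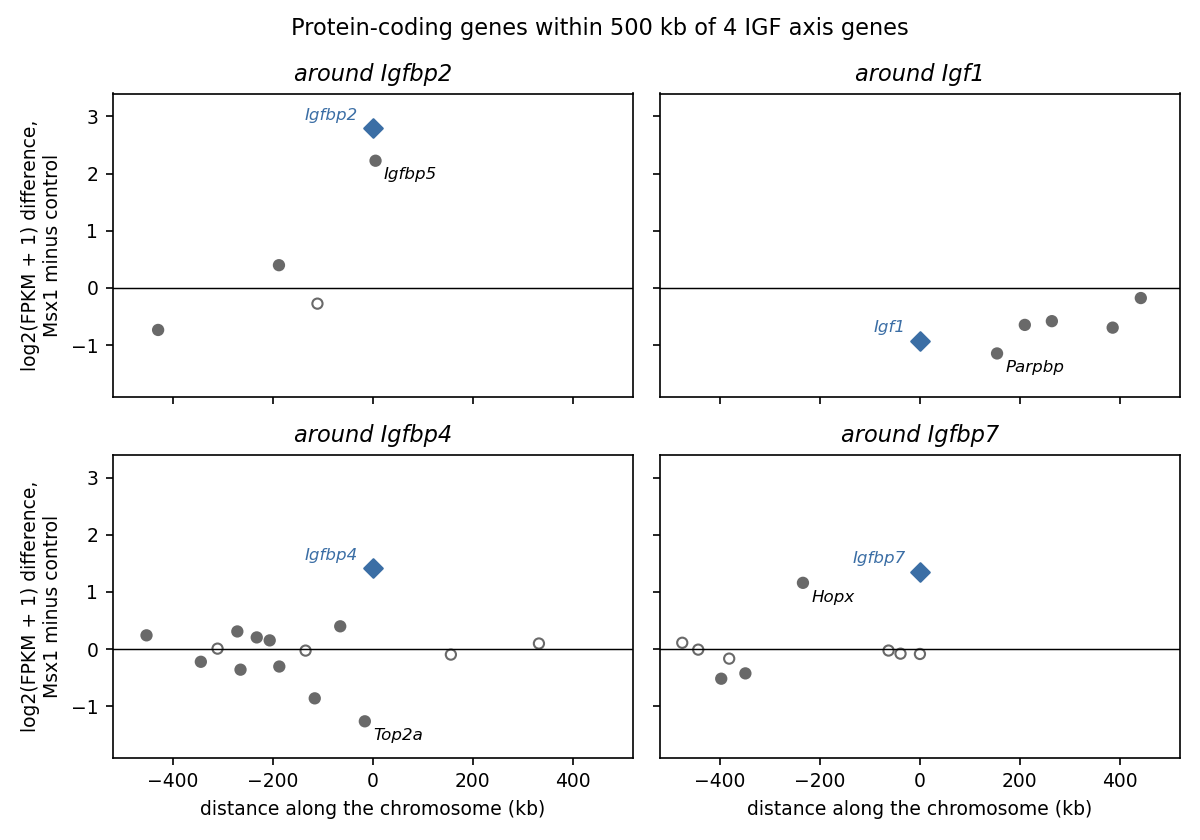
Log2(FPKM + 1) change of tested protein-coding genes within 500 kb of Igfbp2, Igf1, Igfbp4 and Igfbp7 (1 panel each, blue diamond), against distance in kb along the chromosome, with open symbols for genes not called. Igfbp5 at 2.22 lies beside Igfbp2, Top2a beside Igfbp4 reads -1.26, and all 5 neighbours of Igf1 lie under 0.

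Over the 6 libraries, the genes with mean FPKM of at least 5 whose log2 values ran most like Igfbp2 were Adh1 (Pearson r 0.9999) and Fam20c (0.9999). For Igfbp3 they were Aqp1 (0.9999) and Bmp7 (0.9999), the latter listed at 0 in all control libraries, and for Igfbp5 Afdn (0.9999) and Smad3 (0.9998). The 6 points form 2 groups, so r mainly restates the group difference: 496 of 8846 genes had r over 0.99 with Igfbp2, 522 with Igfbp3 and 461 with Igfbp5.

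Cell-state markers moved with the same groups as the IGF axis genes, and their part in these results was not tested. Of 7 differentiating-muscle markers, 5 were tested and all 5 rose, with sums of 19.0 to 21.1 FPKM in control and 81.4 to 87.5 FPKM in Msx1 libraries. Most of the sum was Tnnt2, named after its values were seen (11.6 ± 1.67 and 47.4 ± 2.63 FPKM). The 2 not tested were also named after their values were seen. Myh3 read 0.142 ± 0.0896 and 0.364 ± 0.0378 FPKM, and Ckm went the other way, 0.211 ± 0.0744 and 0.110 ± 0.0781 FPKM, with overlapping libraries. All 6 markers of proliferating cells fell, with sums of 237 to 256 and 122 to 129 FPKM. Of 8 myoblast markers, 2 rose and 4 fell, with sums of 243 to 249 and 234 to 239 FPKM, of which Des made up the most (140 ± 0.668 and 116 ± 4.89 FPKM). Single myoblast markers, named after their values were seen, moved further and in both directions: Myf5 was 5.48-fold lower (9.01 ± 0.396 and 1.64 ± 0.0968 FPKM) and Ncam1 1.96-fold higher (27.1 ± 2.88 and 53.1 ± 5.11 FPKM). Of 5 bone markers 3 were tested and rose, with sums of 18.0 to 19.2 and 82.7 to 87.1 FPKM, most of the difference being from Alpl, named after its values were seen (0.609 ± 0.246 to 62.3 ± 2.14 FPKM), while Ibsp was listed at 0. Of the fat markers 2 of 3 tested fell, with sums of 21.0 to 24.1 and 16.8 to 17.1 FPKM, and all 3 smooth muscle markers tested fell, with sums of 862 to 921 and 719 to 772 FPKM. Fibroblast markers gave 3 higher and 2 lower of 5 tested, with sums of 717 to 816 and 584 to 594 FPKM, most of which was Col3a1 (724 ± 46.2 and 417 ± 8.39 FPKM). Against that sum, 2 fibroblast markers, named after their values were seen, rose by more than any IGF axis gene: Dpt from 0.436 ± 0.0884 to 44.3 ± 3.00 FPKM (log2 change 4.98) and Dcn from 5.07 ± 1.35 to 89.7 ± 5.51 FPKM (3.92). Both macrophage markers tested fell and no endothelial or epithelial marker was tested. Macrophage, endothelial and epithelial markers stayed at or under 22.8, 0.878 and 0.383 FPKM in sum, with Ptprc, Adgre1 and Epcam listed at 0 in all libraries.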

How the data were processed

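RNA from C2C12 cells was taken up in Trizol and made into libraries with a NEBNext Ultra kit, per the labels' protocols. The submitters' processing notes name Trimmomatic, HISAT2, StringTie and the build GRCm38 (mm10), but no version, setting or use of strand. The authors deposited FPKM for 38468 RefSeq transcripts in 6 libraries. Read depth is unknown: only 37.5% to 43.05% of low values fell within 0.1 of a whole number of reads, so no count test was run.

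Transcripts were given symbols from the RefSeq GRCm38.p6 gene table (38193) or GENCODE M21 (156), and FPKM were summed per gene. The 119 without a symbol (0.246% to 0.884% of FPKM) kept their transcript names and stand as single entries among the 24809 genes. Groups were compared with limma 3.58.1 in R 4.3.3 (trend) on log2(FPKM + 1), over 12371 genes with mean FPKM of at least 0.5. P-values are two-sided with Benjamini-Hochberg adjustment over all genes tested, and a gene is called at an adjusted p under 0.05. Log2 changes understate the change of low genes. Fold values are ratios of group mean FPKM, and errors are SD with n = 3 unless named SE. The fit was tested on simulated data. Alternatives were the most abundant transcript per gene, pseudocounts of 0.1 and 0.5, no filter, a minimum of 1 FPKM, 3 scalings, library weights, a replicate block and leaving out each library.

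Named genes were all members, Msx1, 7 pathway genes (Igf2, Insr, Irs1, Irs2, Pappa2, Stc1 and Stc2), up to 4 called genes of each list and of each member's neighbours by absolute change (every tested neighbour of the Igfbp2 and Igfbp5 pair), and the 2 genes most like each of 3 members. Not all neighbours so chosen are printed. Members and lists were chosen with earlier results of these data known. Protein sequences were not analysed here.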

Additional observations from a re-analysis of the deposited data

How the results depend on the processing

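The counts of 6 IGF axis genes called higher and 2 called lower were the same under all 16 alternatives, and the number of genes called over the whole table lay between 5581 and 8770. Igfbp6, the smallest called change, ranged from -0.40 to -0.24 on the log2 scale with adjusted p from 0.00125 to 0.0327 in limma. With the replicate number as a block, 6 members were higher and 2 lower and 6747 genes were called in place of 6732. The deviations of samples with the same number correlated with r of 0.06, 0.23 and 0.04, and those of samples with different numbers with r from -0.20 to 0.13. Msx1 replicates 1 and 2 correlated best with the control of their own number, and Msx1 replicate 3 with Control replicate 1 (0.13). Whether the numbers are pairs cannot be told from these values, and the main fit did not take them as pairs. Leaving out single libraries, the log2 change of Insr ranged from -0.0057 (without Control replicate 1, adjusted p = 0.962) to 0.16, and that of Stc2 from -0.20 to 0.054 (without Msx1 replicate 1, adjusted p = 0.747), so both changed sign, neither was called in any fit, and the cause was not tested. The calls lost for single pathway genes are given beside them. Without a filter on low values, 18 neighbours in place of 10 were called higher. With 3 libraries a group and unknown read depth, Pappa and other genes under 0.5 FPKM cannot be judged, and splits between overlapping transcripts carry an error that the files do not give.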
